A study of Mus musculus with 2 samples.

Results

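The Lgr and R-spondin genes form the upstream gain control of canonical Wnt signalling. The 10 genes described here are Lgr4, Lgr5, Lgr6, Rspo1, Rspo2, Rspo3, Rspo4, Znrf3, Rnf43 and Axin2, out of 21938 protein-coding genes in the GENCODE vM21 annotation of the mouse build GRCm38 (mm10). They were chosen by name. A peak was given to a gene where its centre lay within 3 kb of any transcription start site (TSS) of the gene, called a promoter peak here, or in the gene body and the 10 kb upstream of it. By this rule 41 of 77596 peaks labelled WT and 66 of 100431 peaks labelled Bmi1 KO (Bmi1-/-) belonged to the 10 genes.

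The data are peaks of ATAC-seq, in which the Tn5 transposase inserts adapters preferentially into open chromatin. The tissue was the organ of Corti (OC), the auditory sensory epithelium, dissected from neonatal mice. WT mice and littermates homozygous for a knockout allele of Bmi1, a component of Polycomb repressive complex 1, were compared after the allele had been backcrossed to C57BL/6J. The allele is constitutive, so Bmi1 is missing in every cell type, and tissue of several mice was pooled into 1 library per genotype. With 1 library per genotype there are no replicates, no difference was tested, and every interval below is a 95% interval that covers counting error only. The peak names inside each list carry the prefix of the other genotype for 100% of the peaks, so each direction below rests on the sample labels, and the terms WT-labelled and KO-labelled list are used for that reason.

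R-spondins are secreted proteins that bind the receptors LGR4, LGR5 and LGR6 together with the membrane E3 ubiquitin ligases ZNRF3 and RNF43. The ligases otherwise remove Frizzled and LRP5/6, the Wnt receptors, from the cell surface, so that R-spondin binding raises the response of a cell to Wnt. AXIN2 is a scaffold of the complex that degrades β-catenin, and its gene is a widely used target of β-catenin and TCF/LEF factors. In the neonatal cochlea Lgr5 marks supporting cells that can divide and form hair cells, and Wnt activation in these cells promotes their division.

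Sequences are shown for sites the results below turn on: a promoter under a peak in both lists (Lgr4), one under a peak only in the KO-labelled list (Axin2), one with no peak in either list (Rnf43), and TCF/LEF cores at peaks of Znrf3 and Axin2. RefSeq promoters (GRCm38.p6, 250 bases before and 50 after the start) were matched for 6 of the 10 genes, by symbol, with 7 promoters in all. The motifs searched on both strands were ATCAAAG and TTCAAAG, the TCF/LEF core, and GGGCGG, a GC box, and the matches found do not overlap each other. Capitals mark a match or its reverse complement. The promoters are written in the direction of the gene. The Lgr4 promoter lies at chr2:109917397-109917696 on the plus strand and holds neither motif. The Axin2 promoter, at chr11:108920099-108920398 on the plus strand, holds GC boxes at positions -58 and -20 from the RefSeq start. The Rnf43 promoter at chr11:87662837-87663136, on the plus strand, holds neither.
Lgr4 promoter: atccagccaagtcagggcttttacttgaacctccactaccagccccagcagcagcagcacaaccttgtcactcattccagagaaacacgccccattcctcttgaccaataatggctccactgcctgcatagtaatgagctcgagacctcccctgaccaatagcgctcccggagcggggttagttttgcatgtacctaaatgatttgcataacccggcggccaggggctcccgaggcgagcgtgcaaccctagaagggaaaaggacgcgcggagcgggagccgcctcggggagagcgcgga
Axin2 promoter: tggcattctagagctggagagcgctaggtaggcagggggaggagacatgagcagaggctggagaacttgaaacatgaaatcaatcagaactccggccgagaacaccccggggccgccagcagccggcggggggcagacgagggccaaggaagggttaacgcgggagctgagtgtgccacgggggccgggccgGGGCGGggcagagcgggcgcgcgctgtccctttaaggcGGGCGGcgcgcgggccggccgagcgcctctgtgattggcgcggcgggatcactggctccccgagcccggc
Rnf43 promoter: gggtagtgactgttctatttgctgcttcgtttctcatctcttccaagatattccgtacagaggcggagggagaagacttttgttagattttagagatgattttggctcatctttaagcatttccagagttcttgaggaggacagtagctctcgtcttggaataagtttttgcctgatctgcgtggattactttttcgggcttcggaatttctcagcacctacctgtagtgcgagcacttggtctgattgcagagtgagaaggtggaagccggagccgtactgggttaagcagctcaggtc
The Axin2 site is the core inside the promoter peak labelled Bmi1-/-, at chr11:108920417-108920443 on the plus strand. The Znrf3 stretch, at chr11:5411735-5411861 in intron 1, is written on the plus strand, against the direction of the gene, and holds 2 cores.
Axin2 TCF/LEF site: gccggctgcgCTTTGATaaggtcctgg
Znrf3 intron 1: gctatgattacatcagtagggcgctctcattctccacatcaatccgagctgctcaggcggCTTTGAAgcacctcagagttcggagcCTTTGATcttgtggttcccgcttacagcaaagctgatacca
GC content was 58.3% for Lgr4, 70.0% for Axin2 and 46.7% for Rnf43, where the median of all 32851 RefSeq promoters was 52.7%. High GC content was found both with and without a peak. The Rspo1 and Rspo4 promoters, at 69.0% and 71.0%, had no peak over them in either list. The Lgr6 promoter, at 67.7%, spans chr1:135105227-135105526 and was overlapped only at its edge, by a KO-labelled peak that ends at 135105243. The overlapping peak labelled WT ends at 135105193, just short of this promoter. The second Rnf43 promoter, at 44.3%, had no peak over it. A GC box was present in 35.7% of all RefSeq promoters and a TCF/LEF core in 8.65%. Among the 7 promoters of these genes, 3 held a GC box (Lgr6, Rspo4 and Axin2), and none held a TCF/LEF core.

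Taken over the gene set, promoter peaks were listed for 8 of the 10 genes in the WT-labelled list and for all 10 in the KO-labelled list. Over all protein-coding genes the shares were 59.1% and 68.2%. In this set 8 genes had a promoter peak in both lists, where 53% of all genes did. Rspo2 and Rspo4 had one in the KO-labelled list alone, a state found in 15.2% of all genes. No gene of the set had one only in the WT-labelled list (6.1% of all genes) or in neither list (25.7% of all genes). Rspo2 and Rspo4 are ligand genes, but which genes had a promoter peak in the KO-labelled list alone depended on the setting. At a −log10 q of at least 1.3, Rspo4 had none in either list. Lgr6 and Rnf43 then joined Rspo2 with one in the KO-labelled list alone. Counting the first TSS of each gene alone was an alternative chosen after seeing the data. It gave a promoter peak for 6 genes in the WT-labelled list and for 9 in the KO-labelled list. Rspo1 then had a promoter peak in the KO-labelled list only, and Rnf43 in neither list.

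To compare the strength of a promoter between lists of different size, the strongest promoter peak of each gene was ranked by its −log10 p among all peaks of its own list. A gene with no promoter peak in a list was ranked below any gene with one, so that Rspo2 and Rspo4 count as higher under the label Bmi1-/- by construction. With them, 7 of the 10 genes were higher in the KO-labelled list, against 68.6% of the 16298 genes that have one in any list, so the count was near the background. Among the 8 genes with a percentile in both lists, 5 were higher, against 67.5% of all such genes. The 3 exceptions were Lgr5, Rspo1 and Rspo3, with Lgr5 almost equal in the 2 lists (99.8917 and 99.8905). The direction of some genes depended on the setting. At a −log10 q of at least 1.3, Lgr5 was higher in the KO-labelled list (99.79 and 99.83). With promoters of 1 kb to each side of a TSS, Lgr6 was higher in the WT-labelled list (31.2 and 20.7). The median percentile over the gene set was 82.5 in the WT-labelled list, over 8 genes, and 69.3 in the KO-labelled list, over 10 genes. Over every protein-coding gene with such a peak the medians were 76.8 and 87.3.

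**Figure D1:**
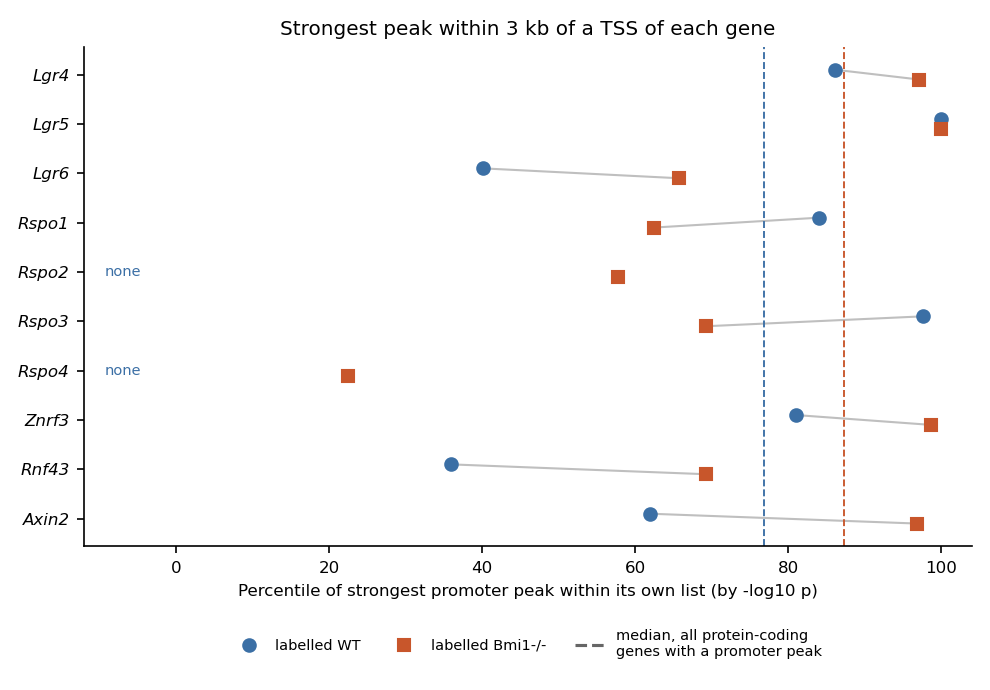
Percentile (x axis) of the strongest promoter peak of each gene (y axis) among all peaks of its own list, ranked by −log10 p. Circles are the WT-labelled list, squares the KO-labelled list, and dashed lines the medians over every protein-coding gene that has one, 76.8 and 87.3. Lgr5 lies at 99.9 in both lists, and Rspo2 and Rspo4 have no promoter peak in the WT-labelled list. For Rspo1, Rspo3, Lgr6, Rnf43 and Axin2 the strongest peaks of the 2 lists do not overlap.

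Lgr5, the receptor gene that marks the progenitors, held the strongest promoter peak of the set in both lists. Its peak at chr10:115587134-115588067 in the WT-labelled list had a pileup of 62 reads at the summit (the number of reads stacked there, worked back from the deposited values), and its peak at chr10:115586970-115587623 in the KO-labelled list had 67. These ranked 85 of 77596 and 111 of 100431 peaks, and the gene ranked 19 of 12956 and 24 of 14960 genes with a promoter peak. Both peaks overlie exon 1, and their summits were 45 bp apart. Pileups can be compared only after division by the commonest background of the library, which was 6.32 reads in the WT-labelled list and 8.04 in the KO-labelled list. On this scale the Lgr5 promoter was at 9.81 and 8.33 times the background, a ratio of 0.849 (0.592 to 1.22) for Bmi1-/- over WT. The interval includes 1, so no difference was detectable at this depth. A weaker peak 428 bp upstream of the start, with 21 reads, was a separate peak in the KO-labelled list and overlaps the edge of the wide peak labelled WT.

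The Lgr5 body held few other peaks that the lists share. In all, 4 peaks were listed under WT and 11 under Bmi1-/-. Apart from the promoter, 1 pair overlapped, in intron 4 at chr10:115492423-115492825, with 18 reads in the WT-labelled list and 19 in the other. That pair was at 2.85 and 2.36 times the background, a ratio of 0.830 (0.412 to 1.68). The peaks without an overlap had 20 reads each for the 2 in intron 1 labelled WT, and 16 to 23 reads for the 8 labelled Bmi1-/-. Those labelled WT each ranked at the 81.0 percentile, above the shared peak labelled WT at 56.8. Most of those labelled Bmi1-/- ranked below the shared peak labelled Bmi1-/- at 29.2, and the highest ranked at 78.0. The highest of these 8, with 23 reads, lay 8133 bp upstream of the start. Intron 4 carried 4 peaks in the KO-labelled list and 1 in the WT-labelled list.

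Lgr4, the broadly expressed receptor of the family, had a promoter peak over its start in both lists. The WT-labelled list showed a peak of 980 bp with 22 reads, at the 86.1 percentile. The KO-labelled list showed 3 promoter peaks, with 35, 25 and 28 reads, the strongest at the 97.1 percentile. Scaled to background, the pair was at 3.48 and 4.35, a ratio of 1.25 (0.713 to 2.24), which includes 1. Over the region the WT-labelled list had 2 peaks and the KO-labelled list had 8. Of the 5 Bmi1-/- peaks away from the promoter, 1 lay upstream, 2 in intron 1 and 2 in intron 2, with 17 to 23 reads, and none overlapped the other list. The peak in intron 1 at chr2:109925752-109926261, with 20 reads, held a TCF/LEF core 3 bp from its summit.

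Lgr6, which marks a subset of the Lgr5 cells in the cochlea, had the most peaks of the set, with 10 in the WT-labelled list and 16 in the KO-labelled list, yet 1 in each overlapped. The shared pair covers exon 1 at chr1:135104984-135105193, with 23 and 25 reads, at 3.64 and 3.11 times the background (ratio 0.854, 0.465 to 1.58). The local background at this site was above the commonest value, and the percentiles were 31.2 and 20.7. The strongest promoter peaks lay in intron 6, each near a different internal TSS. The one labelled WT, 2717 bp from its TSS, had 17 reads and the 40.1 percentile, and the one labelled Bmi1-/-, 1844 bp from its TSS, had 23 reads and the 65.7 percentile. The highest-ranked peak of the gene was outside promoters in both lists: in intron 4 labelled WT (24 reads, percentile 90.2) and in intron 1 labelled Bmi1-/- (29 reads, percentile 90.7).

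**Figure D2:**
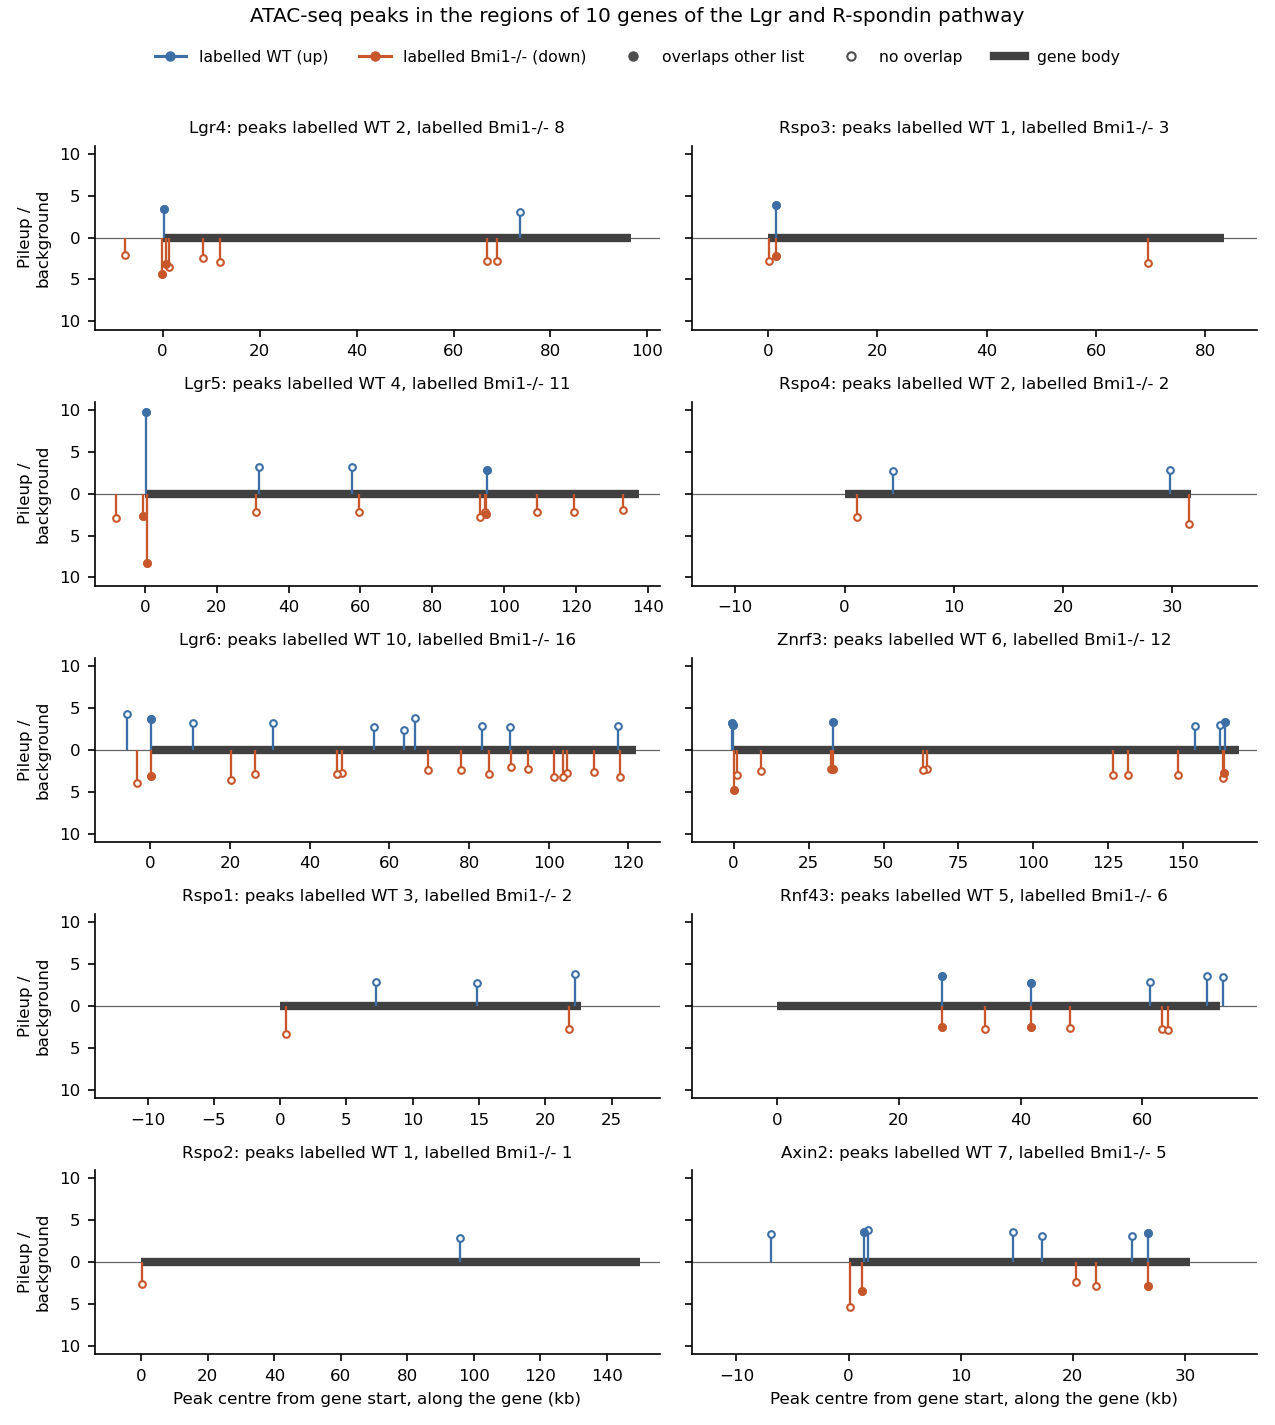
All peaks of the 10 genes: distance of the peak centre from the gene start along the gene in kb (x axis) and summit pileup divided by the commonest background of the library (y axis), labelled WT upward and labelled Bmi1-/- downward. Filled points overlap a peak of the other list, open points do not, and the dark bar is the gene body. The Lgr5 start stands out at 9.81 and 8.33, and most other peaks lie between 2 and 4 with no overlap.

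The R-spondin ligand genes had few peaks, with 7 in the WT-labelled list and 8 in the KO-labelled list over the 4 genes. Rspo1 had 3 and 2 peaks and no overlap between the lists. In the KO-labelled list a peak of 27 reads lay in intron 1 at chr4:124986724-124987012, 438 bp from the gene start, at the 62.4 percentile. In the WT-labelled list no peak lay near that start, and the promoter peak counted there, with 24 reads at the 84.0 percentile, lay in exon 6 at chr4:125008592-125008822, near an internal TSS at the 3′ end. The other Rspo1 peak labelled Bmi1-/-, with 22 reads at the 51.8 percentile, lay near the same internal TSS. It was in intron 5 at chr4:125008003-125008405 and did not overlap the peak labelled WT. The Rspo1 promoter percentiles compared above are those of the strongest peaks and thus describe different sites.

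Rspo2 had 1 peak in each list at unlike places. The KO-labelled list had a peak of 778 bp over the start, at chr15:43170245-43171022, with 21 reads and the 57.8 percentile. The WT-labelled list had a peak of 18 reads in intron 5. At the Rspo2 start the peak labelled Bmi1-/- had a −log10 q of 1.65, so it was not among the strong peaks of its list.

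Rspo3 was the ligand gene with the highest promoter percentile in either list. A peak in intron 1, at chr10:29534299-29534581, had 25 reads in the WT-labelled list and 18 in the KO-labelled list. These were 3.96 and 2.24 times the background, a ratio of 0.566 (0.291 to 1.08), the lowest of the set, with an interval that includes 1. The percentiles of this pair were 97.5 and 15.8. The KO-labelled list had a further promoter peak over exon 1, with 22 reads at the 69.3 percentile, which had no overlap among the peaks labelled WT.

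Rspo4 had 2 peaks in each list, none shared. Its promoter peak labelled Bmi1-/-, with 22 reads in intron 1, lay 1099 bp from the start and ranked at the 22.5 percentile, the lowest among the strongest promoter peaks of the 10 genes in the KO-labelled list. The nearest peak labelled WT, with 17 reads, lay 4395 bp from the start, also in intron 1. The state of Rspo4 rests on this weak peak: it is absent when only as many peaks are taken from the KO-labelled list as the WT-labelled list holds.

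**Figure D3:**
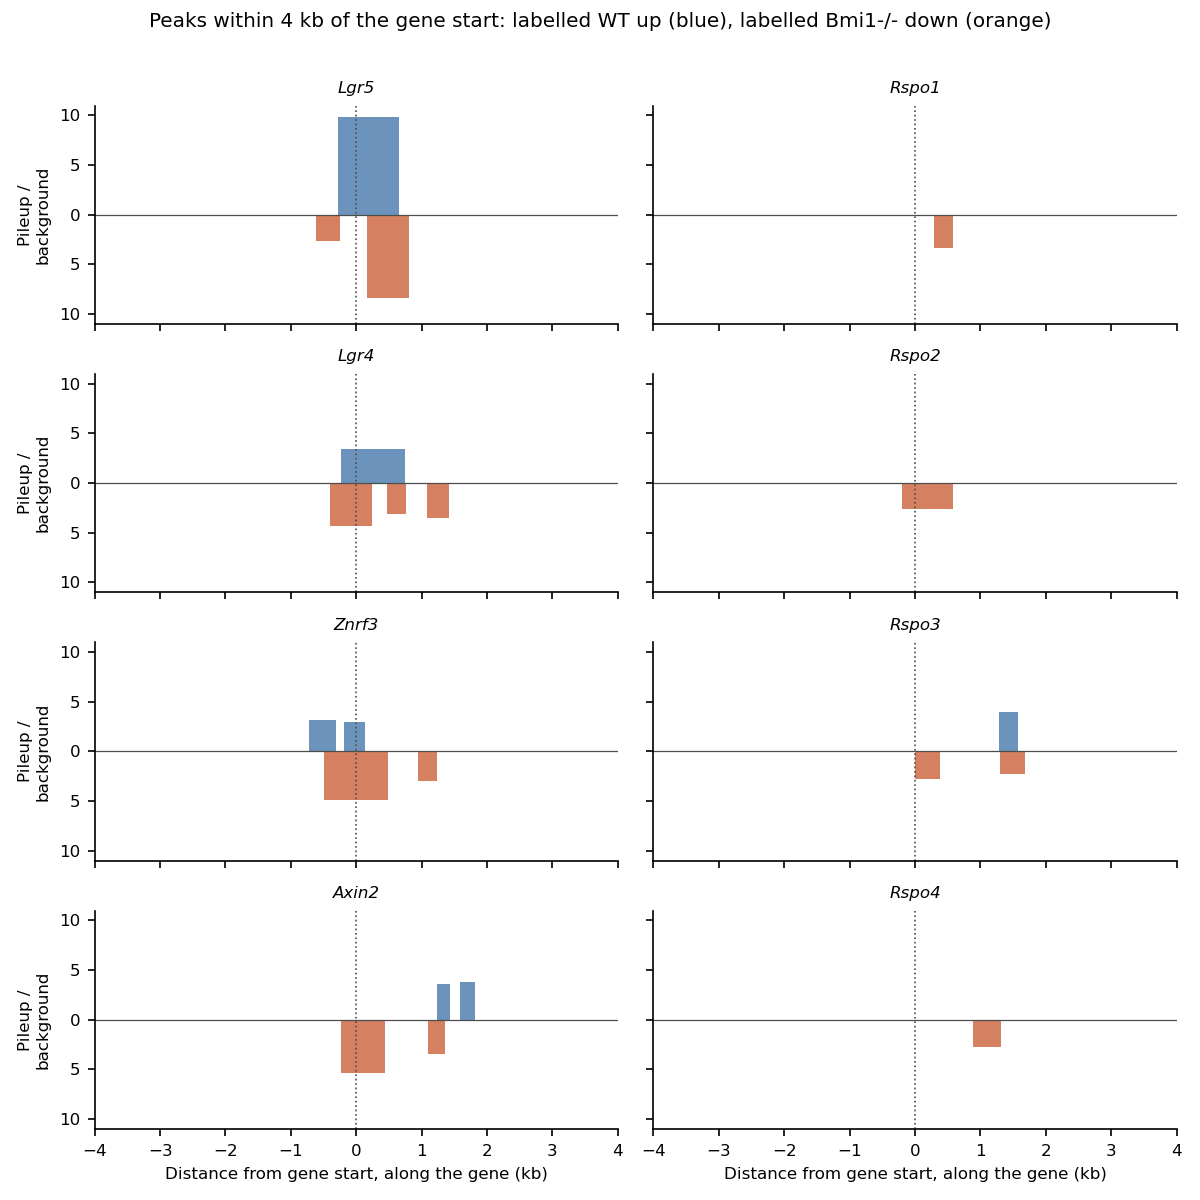
Peaks within 4 kb of the gene start of 8 genes, with the distance from the start along the gene in kb (x axis) and the summit pileup over the commonest background (y axis). Bars span the width of each peak, blue upward for the WT-labelled list and orange downward for the KO-labelled list. Lgr4 and Znrf3 have peaks over the start in both lists. At Lgr5 the peak labelled WT covers the start, which lies between 2 peaks labelled Bmi1-/-. The stronger of these covers another TSS, 287 bp into the gene. Axin2, Rspo2 and Rspo3 have a peak over the start in the KO-labelled list alone. Rspo1 and Rspo4 have one downstream of the start in that list alone.

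Znrf3, which encodes a ligase that R-spondins remove, had the highest ratio of the set at its promoter. The WT-labelled list had 2 peaks there, of 330 and 411 bp, with 19 and 20 reads. In the KO-labelled list a single peak of 977 bp at chr11:5444364-5445340, with 39 reads, overlapped both. On the background scale the values were 3.01 and 3.16 against 4.85, giving ratios of 1.61 (0.910 to 2.96) and 1.53 (0.873 to 2.77), which are not independent since the Bmi1-/- peak is the same. Both intervals include 1. The percentile was 81.0 in the WT-labelled list and 98.6 in the KO-labelled list, in which Znrf3 ranked 1302 of 14960 genes.

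Znrf3 also had the peak pair whose TCF/LEF cores are printed above. At chr11:5411414-5411790 in intron 1 the WT-labelled list had 21 reads at its summit, at the 87.8 percentile. The overlapping Bmi1-/- peak had 18 reads at the 15.8 percentile. The ratio was 0.674 (0.338 to 1.33). The core nearer to the summits lay 91 bp from the summit labelled WT and 76 bp from the summit labelled Bmi1-/-, and those summits were 15 bp apart. It starts at 5411795, inside the Bmi1-/- peak and just beyond the end of the peak labelled WT. Another place with peaks in both lists was exon 8, with 21 and 22 reads and a ratio of 0.824 (0.432 to 1.57). In all, 4 of 6 Znrf3 peaks labelled WT and 3 of 12 labelled Bmi1-/- overlapped the other list.

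Rnf43, which encodes the other ligase, had no peak within 3 kb of its gene start in either list. Its 5 peaks labelled WT and 6 labelled Bmi1-/- all lay 27046 bp or more from the gene start, 1 of those labelled WT beyond the end of the gene and within 3 kb of a TSS of Supt4a. Both overlapping pairs were in intron 2: 23 and 20 reads at chr11:87689632-87689904 (ratio 0.684, 0.356 to 1.302), and 17 and 20 reads at chr11:87704313-87704521 (ratio 0.925, 0.460 to 1.88). The first of these was the highest-ranked Rnf43 peak labelled WT, at the 94.8 percentile. The promoter peaks counted for Rnf43 lay near internal TSSs, at the 35.9 percentile in the WT-labelled list and at the 69.3 percentile in the KO-labelled list, and did not overlap. The strongest of them, labelled Bmi1-/-, was 2927 bp from its TSS and so just inside the 3 kb limit.

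Axin2, the target gene, had a peak over its start in one list. In the KO-labelled list a peak of 674 bp at chr11:108920112-108920785 covered the start and exon 1, with 43 reads at the 96.9 percentile. No peak labelled WT overlapped it. The Axin2 promoter printed above lies almost wholly within this peak, and the TCF/LEF core printed above begins 77 bp from its summit. The deposited fold enrichment of this peak was 2.90, beside 6.75 for the Lgr5 promoter peak in the same list.

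Both lists had peaks further into Axin2. The pair in intron 1 at chr11:108921585-108921789, near an alternative TSS, had 23 reads in the WT-labelled list and 28 in the KO-labelled list, at a ratio of 0.957 (0.532 to 1.74). The pair in intron 10 had 22 and 23 reads, at a ratio of 0.822 (0.438 to 1.55). The strongest promoter peak labelled WT, with 24 reads at the 61.9 percentile, lay in intron 1 and overlapped no Bmi1-/- peak. Axin2 and Rspo1 were the genes with more peaks labelled WT than labelled Bmi1-/-, with 7 and 5 for Axin2.

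Over the 10 genes the KO-labelled list held 1.61 times as many peaks as the WT-labelled list (1.07 to 2.44). Over all peaks this ratio was 1.29 (1.28 to 1.31), which lies within the interval of the gene set. More peaks were labelled Bmi1-/- in 6 genes and WT in 2, and Rspo2 and Rspo4 had equal numbers. Per 100 kb of region the set held 4.04 and 6.50 peaks, and all protein-coding genes held 4.57 and 5.74. Most peaks of the set were intronic, with 30 of 41 labelled WT and 47 of 66 labelled Bmi1-/-.

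Few of these peaks were found in both lists. An overlap of at least 1 bp was present for 13 of 41 peaks labelled WT (31.7%, 18.1% to 48.1%) and for 14 of 66 labelled Bmi1-/- (21.2%, 12.1% to 33.0%). In the regions of all protein-coding genes the shares were 28.9% and 21.9%, which lie within those intervals. Promoter peaks overlapped in 7 of 15 cases labelled WT (46.7%) and in 8 of 24 labelled Bmi1-/- (33.3%), near the 48.8% and 36.6% of promoter peaks of all protein-coding genes. Other peaks overlapped in 6 of 26 (23.1%) and 6 of 42 (14.3%), where 15.4% and 12.1% did over all genes, both within the exact intervals of 8.97% to 43.6% and 5.43% to 28.5%.

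The 13 overlapping pairs had a median ratio of 0.849 for Bmi1-/- over WT, beside a median of 0.993 over all 19222 pairs. A ratio above 1 was found in 3 of 13 pairs, beside 49.2% of all pairs: both at the Znrf3 start, which share a Bmi1-/- peak, and the one at the Lgr4 start. No interval of the 13 excluded 1. Among all pairs the interval lay above 1 in 1.58% and below 1 in 0.323%. When both peaks of a pair were required to have a −log10 q of at least 1.3, 6 pairs were left and their median was 1.05, on the other side of 1.

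**Figure D4:**
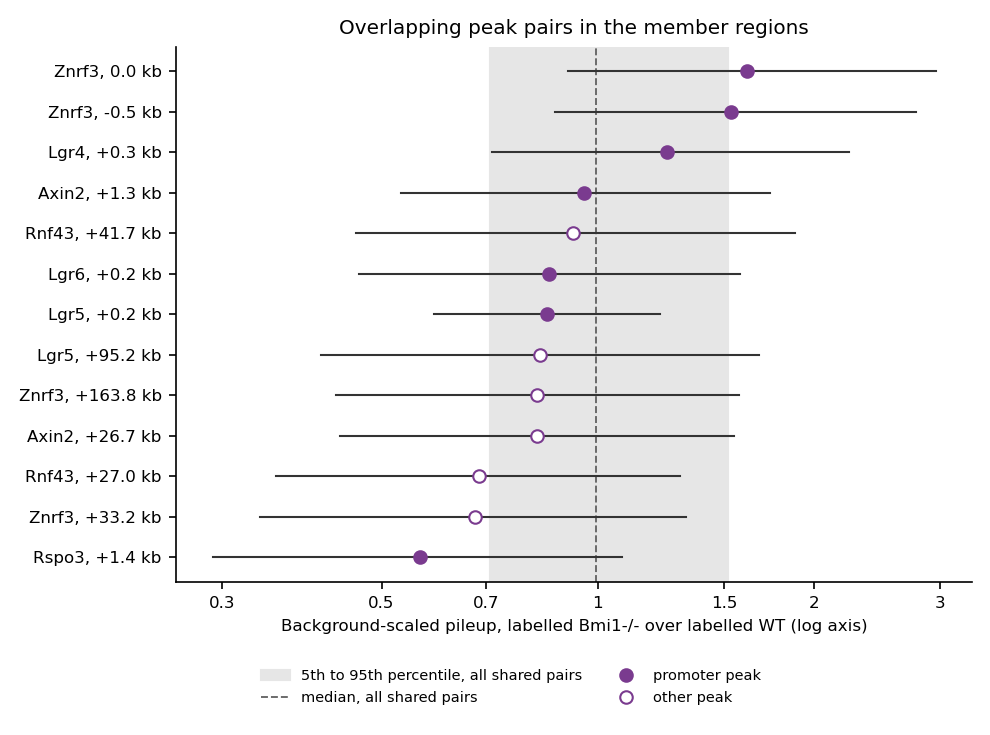
Ratio of the background-scaled pileup, labelled Bmi1-/- over labelled WT (x axis, log scale), for the 13 overlapping peak pairs, each named by gene and by the distance of the peak labelled WT from the gene start in kb (y axis). Lines are exact conditional 95% intervals, filled points promoter peaks, the dashed line the median over all pairs (0.993) and the grey band their 5th to 95th percentile (0.707 to 1.52). Every interval includes 1, and the ratios run from 0.566 at Rspo3 to 1.61 at Znrf3.

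TCF/LEF cores were searched in the 200 bases around each summit, since these factors are the DNA-binding arm of the pathway. A core was present in 4 of 41 peaks labelled WT (9.76%, 2.72% to 23.1%) and in 4 of 66 labelled Bmi1-/- (6.06%, 1.68% to 14.8%). Over all peaks the shares were 4.4% and 4.26%, and over peaks in the regions of all protein-coding genes 4.17% and 4.002%, all within those intervals. Searched over the whole peak, the share labelled WT was 9.76%, beside 6.78% of all peaks, and the share labelled Bmi1-/- was 13.6%, beside 7.36%. Under the label WT the peaks were in Lgr6 introns 1 and 2, Znrf3 intron 1 and Axin2 intron 3. Under the label Bmi1-/- they were in Lgr4 intron 1, Znrf3 intron 1, Rnf43 intron 3 and over the Axin2 start. The Znrf3 site was the only one of these found in both lists. A match is a description of the letters and not evidence of binding.

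The other genes of the pathway were taken as lists. Of 26 Wnt receptors and core components, 23 had a promoter peak in the WT-labelled list and 26 in the KO-labelled list, beside the shares of 59.1% and 68.2% over all genes. The highest mean percentiles were those of Gsk3b (99.2 and 99.7), Axin1 (99.2 and 98.5) and Pygo2 (98.1 and 97.7), a kinase and a scaffold of the β-catenin degradation complex and a co-activator of β-catenin. The same genes were nearest to Lgr5 in their pair of percentiles, at distances of 0.753, 1.53 and 2.81 percentile points. The 71 genes compared were those of the pathway lists and of the supporting cell list used below. As Lgr5 lies at 99.9 in both peak lists, this nearness largely repeats the ranking by percentile. Peaks labelled Bmi1-/- alone were found for the receptor gene Fzd6 (15.8), the signal transducer gene Dvl1 (80.7) and the TCF/LEF family gene Tcf7 (10.1).

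Of 18 Wnt antagonists, 11 had one in the WT-labelled list and 13 in the KO-labelled list, shares near those of all genes, and 9 had one in both. The highest were Kremen1 (96.0 and 96.2), a receptor for Dickkopf proteins, Apcdd1 (98.6 and 93.9), a membrane inhibitor of Wnt, and Nkd2 (85.5 and 87.3), which binds Dishevelled. The KO-labelled list alone had promoter peaks for Dkk2 (29.2), Dkk3 (64.1), Sfrp5 (73.1) and Sost (62.7), all secreted proteins. The WT-labelled list alone had them for Dkk4 (32.0) and Notum (45.7), the latter an enzyme that inactivates Wnt proteins. Dkk1, Sostdc1 and Kremen2 had none in either list.

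Of 12 textbook Wnt targets and Lgr5 stem cell genes, 10 had a promoter peak in the WT-labelled list and all 12 in the KO-labelled list. Lrig1 (95.5 and 99.2), a membrane inhibitor of growth factor receptors, Ephb3 (96.9 and 94.1), an ephrin receptor, and Sp5 (95.7 and 94.9), a transcription factor, were the highest. Ascl2 (19.3), a transcription factor of intestinal stem cells, and Smoc2 (44.0), a matrix protein, had promoter peaks labelled Bmi1-/- only. Among the 10 genes and these lists, a promoter peak labelled WT alone was found only for Dkk4 and Notum, a state of 6.1% of all genes. Both are antagonists, and 4 other antagonists had one labelled Bmi1-/- alone.

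**Figure D5:**
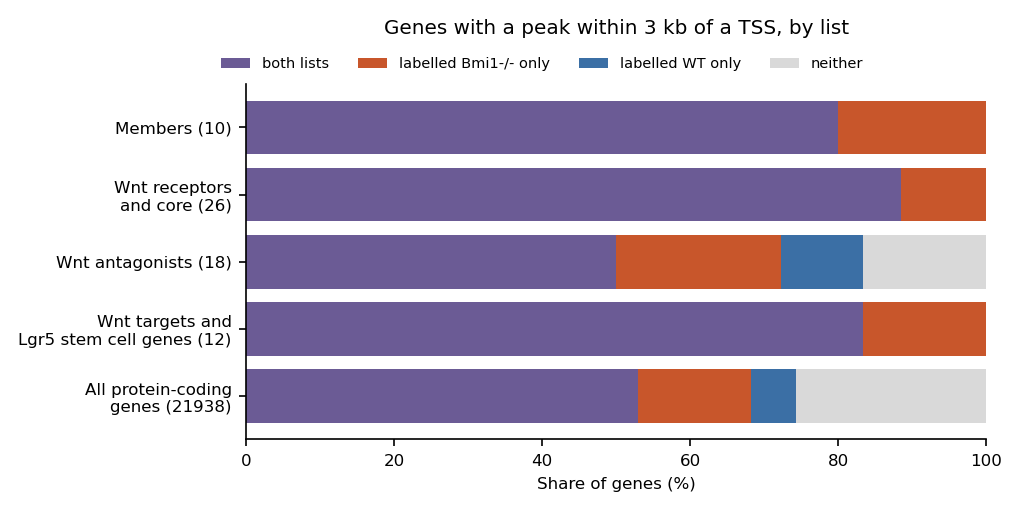
Share of genes (x axis, %) by promoter state: a peak in both lists, in 1 of them or in neither, for the 10 genes, the 3 pathway lists and all 21938 protein-coding genes (y axis, number of genes in parentheses). The 10 genes have 8 in both lists and 2 among peaks labelled Bmi1-/- only, and among all genes 53% have a promoter peak in both.

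The tissue was checked against marker genes, whose counts are to be read beside the 59.1% and 68.2% of all genes with a promoter peak. Several lists, the hair cell list among them, were near those shares, so the counts do not identify the cells. Promoter peaks were listed for 9 and 9 of 12 hair cell markers, with Myo6 (98.1 and 99.1), Cib2 (66.5 and 96.5) and Pou4f3 (70.8 and 69.3) highest, and for 13 and 11 of 15 supporting cell markers, with Hey1 (98.0 and 94.3), Sox2 (94.8 and 97.1) and Hey2 (90.2 and 98.0) highest. In the hair cell list Otof and Ocm had a promoter peak labelled Bmi1-/- only and Lhx3 and Pvalb one labelled WT only, and in the supporting cell list Hes5 and Gjb6 had one labelled WT only. Genes of the lists for other cells also had promoter peaks, though a gene such as Gata3 need not be particular to the cell type of its list. Neurons had 5 and 8 of 9 (Snap25, Nefm, Pou4f1 and Stmn2 labelled Bmi1-/- only, Nefl labelled WT only), and glia 5 and 5 of 6. Mesenchyme had 7 and 7 of 10 (Pou3f4 and Tbx18 labelled Bmi1-/- only, Col1a1 and Col1a2 labelled WT only). Blood and macrophages had 3 and 1 of 6, with Csf1r, Cx3cr1 and Spi1 labelled WT only, Hba-a1 labelled Bmi1-/- only, and Ptprc and Gata1 without a peak. Endothelium had 5 and 4 of 6, with Pecam1 and Tie1 labelled WT only and Tek labelled Bmi1-/- only. In each of these lists the other genes of high rank were Gata3 and Ntrk3 for neurons, Egr2, Pmp22 and Foxd3 for glia, Twist1, Twist2 and Coch for mesenchyme, and Sox17, Kdr and Cdh5 for endothelium. The part of cell composition in the values of the 10 genes was not tested, and in a bulk library fewer cells with an open site and a less open site in each cell cannot be told apart.

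At Bmi1 itself, the gene disrupted in the knockout, the WT-labelled list had 1 peak, with 17 reads at the 40.1 percentile, and the KO-labelled list had 3, the strongest with 29 reads at the 92.0 percentile. Which part of Bmi1 the allele lacks is not given in the sources used here, so these peaks do not check the labels. The lists do not contain read totals, and depth is known only through the commonest background, which was 1.27 times higher in the KO-labelled list. Both lists run down to a −log10 p of about 2.0, and a −log10 q of at least 1.3 was reached by 24 of 41 and 38 of 66 peaks of the gene set. Above a −log10 q of 5 the peaks left were those at the start of Lgr5 in both lists and of Lgr4, Znrf3 and Axin2 in the KO-labelled list. Just outside the limits of the rule were a Bmi1-/- peak 3096 bp from an internal TSS of Lgr6, counted as a gene body peak, and a Bmi1-/- peak 472 bp beyond the Axin2 region. Just inside were the Rnf43 peak at 2927 bp and an Lgr6 peak labelled WT at 2717 bp.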

How the data were processed

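Peaks were called by the authors in each library separately. The sources name BWA for mapping and MACS2 for peak calling, and list mm10 as the build in the submitters' processing notes; versions and MACS2 options are not given in the sources used here. Fold enrichment, as deposited, divides the summit pileup plus 1 by the local background plus 1. The deposited −log10 p is Poisson, the deposited −log10 q is adjusted within the library, and the deposited score was not used. The deposited summit offset gave summit positions. Peaks outside the assembled chromosomes (230 and 237) were left out.

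Whole pileups were solved from fold enrichment and −log10 p, within 0.001 on the −log10 p, for 100% of peaks, and the solver was tested on simulated data. Intervals are exact binomial, Poisson or conditional. Each peak labelled WT was paired with the strongest overlapping peak labelled Bmi1-/-. The text names the 10 genes, Bmi1, the 3 highest genes of each list, genes with a promoter peak in 1 list only, and the 3 nearest Lgr5. Genes and lists were chosen with earlier results of these data known. Of the neuron and glia marker lists, 1 gene each is not reported here and was taken out of the counts. Alternatives changed the promoter width, TSS set, −log10 q, number of peaks, overlap, scaling and motif window. Python 3.11.15, numpy 2.4.6, pandas 2.3.3, scipy 1.17.1, pysam 0.24.0, samtools 1.23.1 and matplotlib 3.10.9 were used.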

Additional observations from a re-analysis of the deposited data

How the results depend on the processing

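Of 93 alternative values, 75 stayed within the limits set for a change and 18 moved. At a −log10 q of at least 5, 1 peak labelled WT and 4 labelled Bmi1-/- remained in the gene regions (100% and 75% of them overlapping). Promoter peaks remained for 1 and 4 genes of the set, and 3 and 14 genes of the pathway lists had one. Over all protein-coding genes 4.17% and 17.6% kept a promoter peak at this setting. All 4 genes of the set with one count as higher under Bmi1-/- (91.5% of all genes with one). Of these, 3 do so by construction, since Lgr5 alone had a peak in both lists. At a −log10 q of at least 1.3, 24 and 38 peaks remained. With TSSs of protein-coding transcripts only, 4 genes had a promoter peak labelled Bmi1-/- alone, and with equal numbers of peaks taken from both lists 1 gene did. Over all protein-coding genes the shares in this state were 16.9% and 13.2% at these settings. A reciprocal overlap of at least 50% lowered the shared peaks to 12.2% labelled WT and 7.58% labelled Bmi1-/-, beside 13.1% and 10.2% of all peaks. The share of peaks with a TCF/LEF core was 0% labelled WT in windows of 100 bases, and 2.44% labelled WT and 1.52% labelled Bmi1-/- with ATCAAAG alone. For Bmi1-/- it was 3.03% in 100 bases and 13.6% over the whole peak, where the share labelled WT was 9.76%. The causes of these changes were not tested. Some of the settings leave fewer peaks or TSSs, and the overlap and motif settings leave those numbers as they were. No replicate could be left out, with 1 library per genotype. No paired analysis was possible because the labels give no replicate numbers. Precision is limited by pileups of 15 to 67 reads.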

Other observations

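The sequences under the peaks of the 10 genes were also described by other letters. ACAATGG, a core bound by SOX factors such as the supporting cell factor SOX2, was found on either strand within the 200 bases around the summit in 0 of 41 peaks labelled WT, where a count of 0 allows a share of up to 8.60%, and in 3 of 66 peaks labelled Bmi1-/- (4.55%, 0.947% to 12.7%). These 3 peaks lay in Lgr5 intron 1, Lgr6 intron 6 and Axin2 intron 4. In the regions of all protein-coding genes the shares were 2.34% and 2.37%. The GC box was found in 6 of 41 (14.6%) and 9 of 66 (13.6%) peaks, beside 14.8% and 15.1% of the peaks in regions of all protein-coding genes. Median GC content was 53% labelled WT and 54% labelled Bmi1-/- in these peaks, and 53.5% and 54% in all those regions. The median width of the peaks was 272 and 304 bp, against 264 and 284 bp.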
